A study of Mus musculus with 2 samples.

Results

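The interferon-induced GTPase and antiviral genes are 36 of the 39098 genes counted in dissociated mouse trigeminal ganglion (TG) cells. They comprise 9 guanylate-binding proteins (Gbp2, Gbp3, Gbp4, Gbp5, Gbp6, Gbp7, Gbp9, Gbp10 and Gbp11), 8 immunity-related GTPases (Iigp1, Igtp, Irgm1, Irgm2, Ifi47, Tgtp1, Tgtp2 and Gm12250), 5 genes best known from the type I interferon response (Ifit1, Ifit2, Ifit3, Isg15 and Rsad2), 5 transcription factors of the pathway (Stat2, Irf1, Irf7, Irf8 and Irf9) and 9 further antiviral genes (Oasl2, Usp18, Ifi35, Bst2, Ifih1, Rtp4, Xaf1, Zbp1 and Parp14). All 36 had counts in both libraries. The genes were picked by symbol with their measured levels in these cells already known, levels that were lower in glia of the treated library. The difference between the libraries is therefore given as a description of the chosen genes and supports nothing.

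Interferons are secreted warning proteins. Type I interferons are made by many cells after contact with nucleic acids of viruses or damaged cells and bind the receptor built from Ifnar1 and Ifnar2, whereas interferon gamma, the type II interferon, is made mainly by T and NK cells and binds Ifngr1 and Ifngr2. Both receptors signal through Janus kinases. Type I signalling brings a complex that holds Stat2 and Irf9 to the interferon-stimulated response element (ISRE), and interferon gamma acts on the gamma-activated site (GAS). Ifit1, Ifit2, Ifit3, Isg15 and Rsad2 are standard readouts of type I interferon, and the GTPases, which attack the vacuoles of intracellular parasites, are strongly induced by interferon gamma. The separation is not strict, since many of the genes answer to both.

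The study compared TG cells under orofacial inflammation with control cells by single-cell RNA sequencing on the BD Rhapsody system. Complete Freund's adjuvant (CFA, mycobacteria in oil) was mixed with saline, and 20 µL was injected into the right vibrissal pad of male C57BL/6 mice aged 5 to 8 weeks. The right TGs were taken 7 days later, from 6 mice per group. Control mice received saline per the study's methods, whereas the sample label calls the control library untreated, and the number of mice behind each library was not stated. Each condition was a single library, so no difference between control and CFA has a replicate check, no test was possible, and the condition cannot be told apart from the library.

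The control library held 7298 cells with 48916096 unique molecular identifiers (UMIs, counted RNA molecules) and the CFA library 4080 cells with 22096268. After filtering, 6695 control and 3661 CFA cells remained, with medians of 1448 and 1192 UMIs per cell. Clusters were formed without the members and the other listed interferon genes, and were named from marker sets that hold none of them. Genes outside the lists were kept, so unlisted genes that follow the response could still shape the clusters. In all, 753 control and 278 CFA cells stayed unnamed. Neurons were present as the tissue label requires (811 control and 416 CFA cells), beside 1052 and 430 satellite glial cells (SGCs, which wrap neuronal cell bodies), 485 and 185 non-myelinating and 2157 and 1319 myelinating Schwann cells (SCs), fibroblasts (FBs), endothelial cells (ECs), oligodendrocyte-like cells (OLCs) and small immune and erythroid groups. The libraries shared 27 cell barcodes. Of the kept UMIs, 82559 in control and 21485 in CFA belonged to the 36 genes, which was 1712 and 992 UMIs in each 1000000 UMIs (CPM).

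The promoters of 26 of the 36 genes could be read. They show which interferon elements stand in front of the GTPase and the type I genes. The search used GAAANNGAAA for the ISRE and TTCNNNGAA for the GAS, on both strands, in the 300 bases from 250 before to 50 after the RefSeq start site (GRCm38.p6). An ISRE stood in 17 of the 26 promoters (65.4%) and in 943 of all 27025 promoters (3.49%). A GAS stood in 12 of the 26 (46.2%) and in 2288 of all promoters (8.47%). The ISRE was found in 4 of 4 GBP, 6 of 7 IRG, 4 of 5 type I, 1 of 5 transcription factor and 2 of 5 further antiviral promoters. The GAS was found in 2 of 4 GBP, 5 of 7 IRG, 1 of 5 type I, 2 of 5 transcription factor and 2 of 5 further antiviral promoters. The promoters of Gbp4, Gbp6, Gbp9, Gbp10, Gbp11, Iigp1, Usp18, Rtp4, Zbp1 and Parp14 were not analysed here.

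The sequences below are written 5′ to 3′ along the gene, with matches to the ISRE or GAS in capitals. They cover the GTPase genes Gbp2 and Igtp, the transcription factor Irf1 and 3 type I genes. Gbp2 was the member with most UMIs in SGCs, Igtp carries both elements, and Irf1, an early target of interferon gamma, carries a GAS alone.
Gbp2 (chr3:142620413-142620712, plus strand): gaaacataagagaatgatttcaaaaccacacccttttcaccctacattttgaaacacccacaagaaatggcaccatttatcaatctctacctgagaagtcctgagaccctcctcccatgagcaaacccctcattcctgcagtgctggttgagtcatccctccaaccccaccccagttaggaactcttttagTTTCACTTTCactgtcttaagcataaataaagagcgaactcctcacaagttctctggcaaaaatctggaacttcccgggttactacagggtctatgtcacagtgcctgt
Igtp (chr11:58199306-58199605, plus strand): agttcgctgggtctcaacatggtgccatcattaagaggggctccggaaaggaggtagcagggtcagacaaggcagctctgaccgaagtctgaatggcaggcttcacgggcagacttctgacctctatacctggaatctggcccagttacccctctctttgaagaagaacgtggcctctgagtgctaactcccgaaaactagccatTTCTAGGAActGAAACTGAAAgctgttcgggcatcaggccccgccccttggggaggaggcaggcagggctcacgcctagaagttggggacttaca
Irf1 (chr11:53769764-53770063, plus strand): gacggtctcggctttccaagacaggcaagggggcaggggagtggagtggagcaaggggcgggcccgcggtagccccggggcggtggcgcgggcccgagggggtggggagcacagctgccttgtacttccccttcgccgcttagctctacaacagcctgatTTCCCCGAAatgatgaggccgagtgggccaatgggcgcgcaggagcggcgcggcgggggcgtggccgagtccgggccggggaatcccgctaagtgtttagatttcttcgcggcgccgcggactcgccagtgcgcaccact
Ifit3 (chr19:34583279-34583578, plus strand): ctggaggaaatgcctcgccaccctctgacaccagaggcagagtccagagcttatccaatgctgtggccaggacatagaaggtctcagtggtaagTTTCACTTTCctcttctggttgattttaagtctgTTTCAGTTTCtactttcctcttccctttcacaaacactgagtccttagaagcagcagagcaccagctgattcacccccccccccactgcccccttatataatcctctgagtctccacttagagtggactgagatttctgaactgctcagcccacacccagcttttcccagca
Isg15 (chr4:156200769-156201068, minus strand): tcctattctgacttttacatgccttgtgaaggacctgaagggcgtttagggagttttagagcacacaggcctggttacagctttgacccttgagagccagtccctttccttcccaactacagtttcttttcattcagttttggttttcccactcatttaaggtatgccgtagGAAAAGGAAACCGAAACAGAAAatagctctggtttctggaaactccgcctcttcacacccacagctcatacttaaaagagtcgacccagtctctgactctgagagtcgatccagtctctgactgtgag
Rsad2 (chr12:26456403-26456702, minus strand): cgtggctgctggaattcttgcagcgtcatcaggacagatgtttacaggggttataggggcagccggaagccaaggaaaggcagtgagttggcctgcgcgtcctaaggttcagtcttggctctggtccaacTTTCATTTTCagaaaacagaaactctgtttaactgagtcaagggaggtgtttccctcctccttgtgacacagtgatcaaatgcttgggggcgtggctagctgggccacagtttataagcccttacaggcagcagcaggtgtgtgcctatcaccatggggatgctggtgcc
In Igtp the ISRE began 11 bases after the start of the GAS, and the same spacing was found in Irgm2, Tgtp1 and Tgtp2. Ifit3 held 2 separate ISREs. In Isg15 3 overlapping ISRE matches followed each other, starting 78, 72 and 66 bases before the start site. ISRE and GAS matches overlapped in Bst2 alone among the members and in 21 of all promoters (0.0777%). No match to either was found in Ifi47, Irf7, Irf9, Oasl2 and Xaf1, which says only that these letters are not in the window. A match describes letters and does not show that a factor binds there.

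Many of the GTPase genes lie side by side. Gbp5, Gbp7, Gbp3 and Gbp2 lie within 144 kb of chromosome 3 (142493978 to 142638008, GRCm38), 5 further Gbp genes lie on chromosome 5, and Ifit2, Ifit3 and Ifit1 lie within 99.3 kb of chromosome 19. Neighbouring copies can share reads. By the share of a gene's 31-base stretches also found in another gene's transcripts, Tgtp1 and Tgtp2 shared 92.9% and 93.3%, Gbp10 shared 84.2% and Gbp6 55.3% with Gm43302, and Ifit3 shared 61.8% with Ifit3b. Counts of these 5 genes are therefore uncertain. Tgtp1 had 2 UMIs in control SGCs and none in CFA SGCs.

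Across cell types of the control library, the summed level of the 36 genes ran from 383 CPM in OLCs to 17346 CPM in non-myelinating SCs. ECs followed non-myelinating SCs with 10854 CPM, and mural cells (4614 CPM), T or NK cells (4063 CPM), myelinating SCs (3889 CPM) and SGCs (3733 CPM) lay close together. The intervals of mural and T or NK cells overlapped (4206 to 5050 and 3701 to 4450 CPM), as did those of T or NK cells, myelinating SCs (3811 to 3967 CPM) and SGCs (3654 to 3813 CPM). Neurons stood at 989 CPM. All intervals here are exact 95% intervals for counting error and say nothing of variation between animals.

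In the CFA library the order at the top changed, since ECs stood at 7836 CPM and non-myelinating SCs at 6041 CPM. SGCs stood at 1184 CPM, neurons at 652 CPM, myelinating SCs at 2234 CPM and OLCs at 310 CPM. T or NK cells stood at 1322 CPM (4063 CPM in control) and mural cells at 2119 CPM (4614 CPM in control), on only 57 and 67 CFA UMIs. The log2 ratio of CFA to control was −1.66 in SGCs (interval −1.75 to −1.56), −1.52 in non-myelinating SCs (−1.62 to −1.43), −0.80 in myelinating SCs (−0.86 to −0.74), −0.60 in neurons (−0.63 to −0.57), −0.47 in ECs (−0.54 to −0.40), −0.43 in FBs (−0.55 to −0.31) and −0.33 in macrophages (−0.50 to −0.15). A single cluster weighed heavily on the SGC value. It held 54 control and no CFA cells, was led by Cxcl10, H2-T23, Serping1 and Igtp, and stood at 17498 CPM. Without it, a comparison chosen after its values were seen, control SGCs stood at 2329 CPM and the log2 ratio was −0.98 (−1.08 to −0.88). Within the 3 other large SGC clusters the ratios were −1.10, −1.05 and −0.42, and within the pair of non-myelinating SC clusters −1.42 (294 control and 59 CFA cells) and −0.69 (191 and 126 cells).

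**Figure D1:**
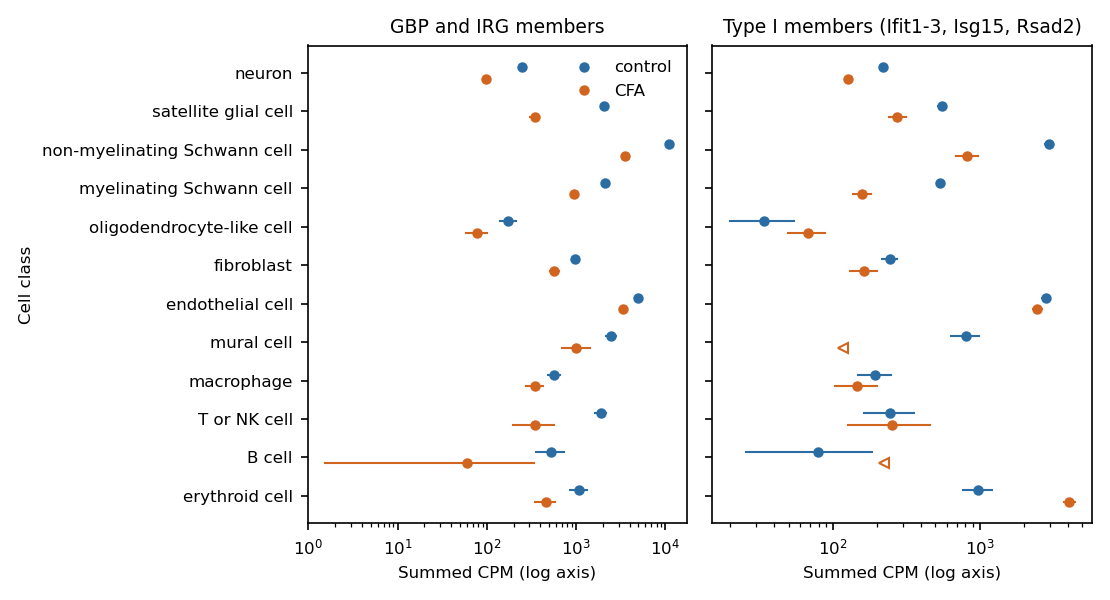
Summed level of the 17 GTPase genes and of the 5 type I genes in the named cell types except neutrophils or monocytes, in CPM on a log axis. Control and CFA are separate points, with exact 95% counting intervals as bars. An open triangle marks the upper limit where no UMI was counted. For the GTPase genes non-myelinating SCs (10992 CPM) and ECs (4900 CPM) stand highest in control. Erythroid cells are the type in which the summed type I genes, mostly Rsad2, stand far higher in CFA (4098 CPM) than in control (972 CPM).

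In SGCs the GTPase genes differed most between the libraries. Gbp2, which coats and disrupts pathogen vacuoles, had 1386 UMIs in control (610 CPM) and 37 in CFA (43.8 CPM), a log2 ratio of −3.80 (−4.31 to −3.33). Iigp1, an effector GTPase of the vacuole membrane, stood at 167 and 14.2 CPM (−3.56). Ifi47, another IRG, stood at 176 and 16.6 CPM (−3.41). These 3 genes had the lowest ratios among members with over 100 UMIs in SGCs. Igtp, also known as Irgm3, a regulator of the effector GTPases, stood at 322 and 44.9 CPM (−2.84). Irgm1, another such regulator, stood at 174 and 84.0 CPM (−1.05), and Irgm2 at 88.0 and 22.5 CPM (−1.97). Gbp7 stood at 152 and 66.2 CPM (−1.20), Gbp3 at 143 and 27.2 CPM (−2.39) and Gbp6 at 89.8 and 9.46 CPM (−3.25). All of these genes were lower in CFA beyond counting error. Tgtp2 had 22 UMIs in control and none in CFA, at least 2.73-fold lower when none is set to 3 UMIs. Without the cluster of 54 control cells the gap narrowed, to 234 and 43.8 CPM for Gbp2 (−2.42), 47.0 and 14.2 CPM for Iigp1 (−1.73), 73.7 and 16.6 CPM for Ifi47 (−2.15) and 182 and 44.9 CPM for Igtp (−2.02). Tgtp2 then had 8 and 0 UMIs, at least 1.09-fold lower.

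The type I genes differed less in SGCs. Ifit3, which binds with other IFIT proteins to foreign RNA, stood at 207 and 75.7 CPM (−1.45, −1.85 to −1.07). Isg15, a ubiquitin-like protein attached to other proteins, stood at 203 and 116 CPM (−0.81, −1.14 to −0.49). Rsad2 (viperin), which makes a chain-terminating nucleotide, stood at 42.3 and 15.4 CPM (−1.46). These intervals lie apart from those of Gbp2, Iigp1 and Ifi47 with all SGCs. Without the 54-cell cluster Rsad2 (−2.24 to −0.40) overlapped all 3, and Ifit3 (−1.57 to −0.77) overlapped Iigp1 and Ifi47. Isg15 (−1.06 to −0.41) then overlapped Iigp1 (−2.73 to −0.86). Ifit1 stood at 77.5 and 52.0 CPM (−0.57), and Ifit2 at 23.8 and 16.6 CPM, with an interval that includes 0 (−1.48 to 0.35). Summed, the 17 GTPase genes stood at 2070 and 344 CPM (−2.59, −2.76 to −2.42) and the 5 type I genes at 554 and 276 CPM (−1.01, −1.21 to −0.80). Without the 54-cell cluster these ratios were −1.50 (−1.69 to −1.33) and −0.84 (−1.05 to −0.63).

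Among the transcription factors and the other antiviral genes in SGCs, Irf1 stood at 236 and 129 CPM (−0.87). Stat2, a factor of type I signalling, stood at 69.1 and 56.8 CPM (−0.28, −0.78 to 0.19), and Irf9, its partner on the ISRE, at 55.5 and 41.4 CPM (−0.42, −1.01 to 0.13). Neither differed beyond counting error. Bst2 (tetherin), which holds budding virus on the cell, stood at 186 and 44.9 CPM (−2.05), Oasl2 at 135 and 56.8 CPM (−1.25), Xaf1 at 103 and 59.1 CPM (−0.81) and Parp14 at 73.1 and 49.7 CPM (−0.56). Rtp4 stood at 67.8 and 41.4 CPM (−0.71), and Ifih1 (MDA5), a sensor of double-stranded RNA, at 62.5 and 42.6 CPM (−0.55). Ifi35, the remaining member with over 100 UMIs, stood at 40.9 and 30.7 CPM (−0.41, −1.10 to 0.23). Zbp1, a sensor of Z-form nucleic acid that can start cell death, had 48 UMIs in control and none in CFA, at least 5.95-fold lower. Without the 54-cell cluster Zbp1 had 19 and 0 UMIs, at least 2.60-fold lower.

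The members with fewer counts in SGCs were read from few UMIs. Gbp4, Gbp5, Gbp9, Gbp10, Gbp11 and Irf8, a factor of macrophages and B cells, had 40 to 89 UMIs in control and 2 each in CFA, with ratios from −4.05 for Gbp4 (−7.12 to −2.15) to −2.90 for Gbp5 (−5.99 to −0.95). Gm12250, also called Irgb10, had 30 and 3 UMIs (−1.90, −4.25 to −0.21). Irf7 had 41 and 4 UMIs (−1.93), and Usp18 had 46 and 4 (−2.10). With all SGCs counted, all were lower in CFA, and their intervals were too wide to order them. Without the 54-cell cluster Gbp4 had 3 and 2 UMIs (0.70, −2.88 to 3.83). Gbp5, Gbp9, Gbp10, Gbp11, Gm12250 and Irf8 then also had intervals that include 0. Irf7 (−1.52, −3.49 to −0.006) and Usp18 (−2.07, −4.01 to −0.61) stayed lower.

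Counting the genes with at least 20 UMIs over both libraries, 24 of 35 members in SGCs were lower in CFA by at least 1 on the log2 scale and 0 were higher by as much. Of all 10015 genes so counted in SGCs, 4.71% were lower by at least 1, and since the members were chosen on this difference nothing is read from the gap. The 24 comprised 9 of 9 GBP, 7 of 7 IRG, 2 of 5 type I, 2 of 5 transcription factor and 4 of 9 further antiviral genes, with median log2 ratios of −3.25, −1.97, −0.81, −0.87 and −0.81. The median of all genes was 0.02. Gbp4, Gbp5, Gbp9, Gbp10, Gbp11, Tgtp2, Gm12250, Irf8 and Zbp1 had at most 3 UMIs in CFA and passed the limit through control. Little is read from their calls, and without the 54-cell cluster they fell below the limit. Then 12 of 26 members were lower by at least 1, against 3.98% of all genes. The 12 comprised 3 of 4 GBP, 4 of 5 IRG, 2 of 5 type I, 1 of 4 transcription factor and 2 of 8 further antiviral genes. Their groups had medians of −1.92, −1.73, −0.73, −0.49 and −0.49. The median of the 26 members was −0.71 and that of the 35 was −1.90, over different genes.

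**Figure D2:**
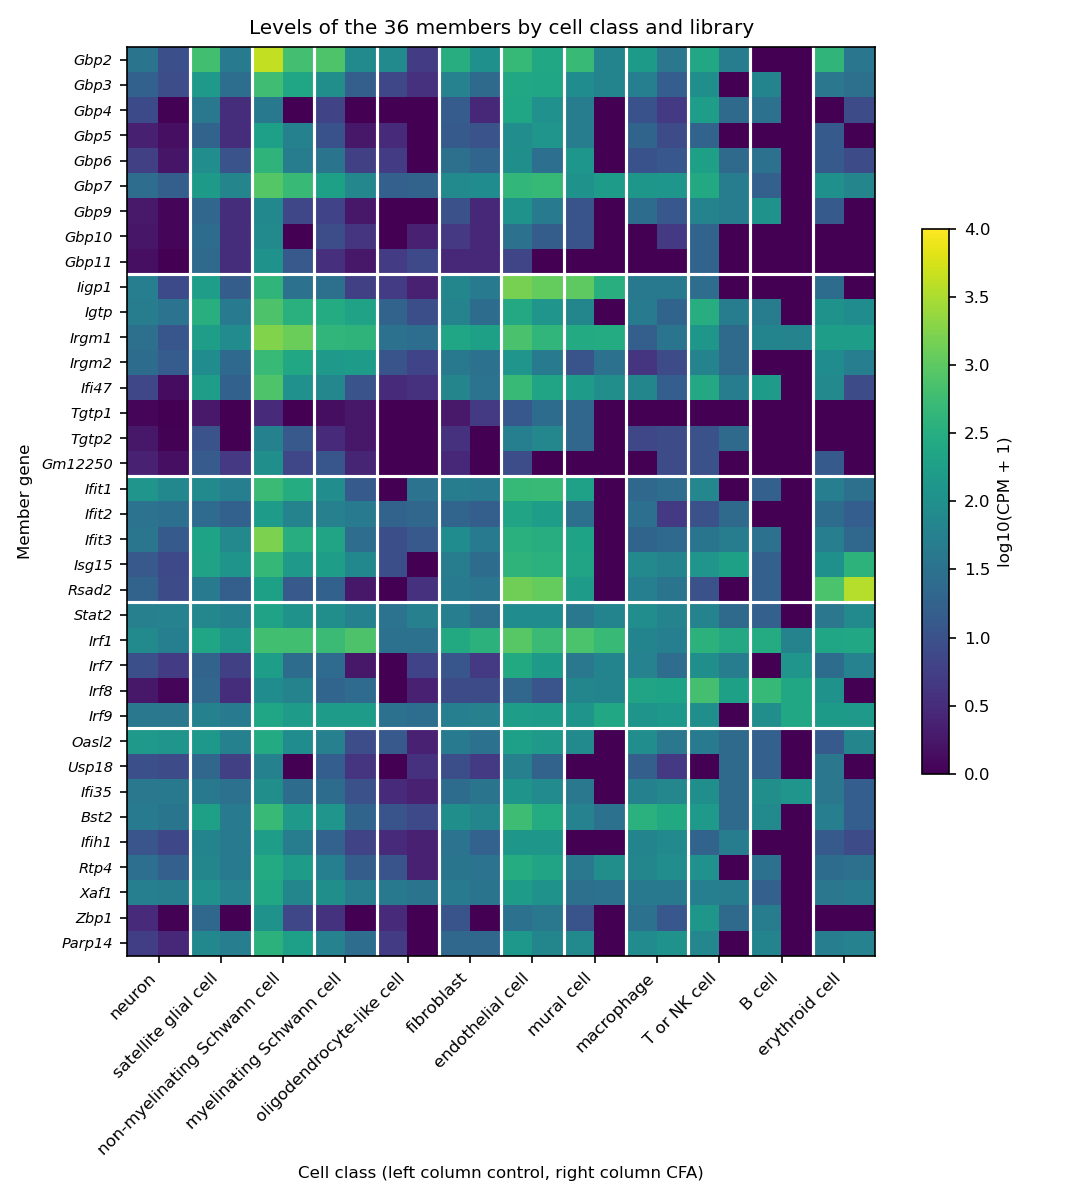
Heat map of the level of every member in the named cell types except neutrophils or monocytes, in CPM on a log colour scale. Control is the left and CFA the right column of each type. In SGCs, with the 54-cell control cluster included, all 9 GBP genes stand lower in CFA, among them Gbp2 at 610 and 43.8 CPM. Stat2 (69.1 and 56.8 CPM) differs little.

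Non-myelinating SCs, which bundle unmyelinated axons, held the highest levels of 23 of the 36 genes among the named types of the control library. Gbp2 stood at 4255 CPM in control and 647 CPM in CFA (−2.72, −3.01 to −2.44). Irgm1 stood at 1770 and 1281 CPM (−0.47, −0.69 to −0.25), and Ifit3 at 1622 and 314 CPM (−2.37). Irgm1 thus kept most of its control level, and Ifit3 did not. Gbp7 stood at 878 and 499 CPM (−0.82), Ifi47 at 794 and 105 CPM (−2.92) and Igtp at 750 and 351 CPM (−1.10). Iigp1 stood at 419 and 30.8 CPM (−3.77), Gbp3 at 585 and 234 CPM (−1.32), Gbp6 at 403 and 49.3 CPM (−3.03) and Irgm2 at 497 and 252 CPM (−0.98). The pattern within the GTPases resembled that of all SGCs in that Iigp1, Ifi47 and Gbp2 had lower ratios than Irgm1, Gbp7 and Igtp. In SGCs without the cluster of 54 control cells, Iigp1 (−1.73, −2.73 to −0.86) no longer lay below Igtp (−2.02, −2.54 to −1.53).

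In contrast to SGCs, type I genes of non-myelinating SCs lay about as far apart between the libraries as the GTPases, at 2957 and 825 CPM summed (−1.84, −2.11 to −1.59) beside 10992 and 3541 CPM (−1.63, −1.76 to −1.51). Rsad2 had 93 UMIs in control and 2 in CFA, a log2 ratio of −3.92 with a wide interval (−6.99 to −2.03). Isg15 stood at 467 and 142 CPM (−1.72), and Ifit1 at 523 and 296 CPM (−0.82). Irf1 stood at 604 and 616 CPM (0.03, −0.31 to 0.36) and did not differ beyond counting error. Bst2 stood at 503 and 142 CPM (−1.83), Parp14 at 369 and 179 CPM (−1.05), Rtp4 at 283 and 154 CPM (−0.88), Oasl2 at 279 and 86.2 CPM (−1.69) and Xaf1 at 241 and 67.7 CPM (−1.83). Irf9 stood at 231 and 154 CPM with an interval that includes 0 (−1.27 to 0.05), and Stat2 at 203 and 111 CPM (−0.87). Of 35 members with at least 20 UMIs, 26 were lower by at least 1 and 0 higher, against 9.82% of all genes lower (median of the members −1.72, of all genes 0.03). Most of these members had fewer than 20 UMIs in CFA, among them Rsad2 and Iigp1, and passed the limit through control. Little is read from their calls.

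In myelinating SCs, which wrap single axons in myelin, 4 of the 30 members with at least 20 UMIs had ratios above 0. Gbp2 stood at 780 and 80.5 CPM (−3.28, −3.58 to −2.99), and Ifit3 at 213 and 26.3 CPM (−3.02). Irf7, the factor that amplifies type I interferon, had 60 UMIs in control and 1 in CFA (−4.93, −10.26 to −2.40). Irf1 in contrast was higher in CFA, at 525 and 760 CPM (0.54, 0.41 to 0.66). Irgm2 (0.08), Irf8 (0.33) and Irf9 (0.08) also lay above 0 with intervals that include it, and Irgm1 stood at 427 and 395 CPM (−0.11, −0.27 to 0.05). Among members with at least 20 UMIs, 21 of 30 were lower by at least 1 and 0 higher by 1, against 4.44% of all genes lower (median of the members −1.75, of all genes 0.04). Members with few UMIs in CFA, such as Irf7, passed the limit through control, and little is read from their calls.

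Neurons held 46.2% of the member UMIs of the control library and 50.9% of those of CFA, where a neuron carried a median of 43815 and 36676 UMIs. On the CPM scale their level was low, and the mixture of genes differed from glia. Oasl2, an oligoadenylate-synthetase-like protein, stood at 147 and 123 CPM (−0.26), Ifit1 at 122 and 71.4 CPM (−0.78) and Irf1 at 78.0 and 52.3 CPM (−0.58). Stat2 (54.9 and 57.5 CPM, 0.07), Irf9 (38.7 and 37.3 CPM, −0.05) and Ifi35 (38.8 and 40.1 CPM, 0.05) had intervals that include 0. Xaf1 stood at 52.2 and 46.8 CPM (−0.16), Bst2 at 44.7 and 34.6 CPM (−0.37), Igtp at 47.2 and 32.8 CPM (−0.52) and Ifit2 at 32.1 and 28.1 CPM (−0.19). These genes kept most of their control level in CFA. Iigp1 stood at 50.3 and 6.85 CPM (−2.88), Gbp2 at 33.6 and 8.46 CPM (−1.99), Ifit3 at 36.5 and 12.8 CPM (−1.52), Irgm1 at 29.3 and 11.0 CPM (−1.42) and Rsad2 at 17.9 and 7.57 CPM (−1.24). Other neuronal members with over 100 UMIs had log2 ratios of −0.88 (Irgm2), −0.77 (Gbp7), −0.81 (Rtp4), −1.06 (Gbp3), −0.86 (Isg15), −0.17 (Usp18, which removes Isg15 from proteins), −0.65 (Ifih1), −1.12 (Irf7), −4.11 (Ifi47), −1.22 (Parp14), −2.83 (Gbp6) and −6.87 (Gbp4, −12.18 to −4.38).

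Several neuronal values rested on few cells. For Gbp4, 269 UMIs in control and 1 in CFA, 10 neurons held 90.7% of the control UMIs, and for Iigp1 10 neurons held 55.9%. A neuron cluster of 10 control and 13 CFA cells stood at 3547 CPM in control and 509 CPM in CFA, and leaving it out, a choice made after its values were seen, moved the summed ratio from −0.60 to −0.55. In control 1 cell held 983 of the 1493 member UMIs of that cluster. Leaving out this cell alone gave a summed neuronal ratio of −0.56 (−0.59 to −0.53). Of 34 members with at least 20 UMIs in neurons, 18 were lower by at least 1 and 0 higher, against 2.83% of all genes lower. The median of the members was −1.09 and that of all genes −0.00. Without that cluster 17 of 34 were lower, against 2.9% of all genes. Gbp4, Gbp5, Gbp6, Gbp9, Gbp10, Ifi47, Tgtp2, Gm12250, Irf8 and Zbp1 then had at most 11 UMIs in CFA. They passed the limit through control, and little is read from their calls. By subtype the summed level in control ran from 334 CPM in cLTMR to 1834 CPM in neurofilament (NF) neurons, with 1527 CPM in peptidergic (PEP) neurons and 708 and 486 CPM in the non-peptidergic NP1 and NP2 neurons. The NF value is uncertain, because the same cell with 983 member UMIs held 48.5% of its UMIs. Without that cell NF neurons stood at 988 CPM (ratio −1.38, beside −2.28 with it). The CFA values were 244, 379, 900, 547 and 357 CPM in the same order. Trpm8 neurons alone among these subtypes stood higher in CFA, at 532 and 629 CPM (0.24, 0.11 to 0.37), where for the type I genes (62.3 and 144 CPM) 1 cell held 39.5% of the CFA UMIs. Without the CFA cell that held most member UMIs, the Trpm8 ratio of all members was −0.04 (−0.18 to 0.10).

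ECs, FBs and macrophages showed smaller differences. ECs held the highest control level of 10 of the 36 genes among the named types (Bst2, Gbp4, Gbp9, Ifi35, Ifit2, Iigp1, Irf1, Irf7, Rsad2 and Rtp4). In ECs Iigp1 stood at 1504 and 1138 CPM (−0.40), Rsad2 at 1378 and 1138 CPM (−0.28) and Gbp2 at 483 and 253 CPM (−0.93). Ifit1 stood at 483 and 499 CPM (0.05) and Gbp5 at 90.7 and 123 CPM (0.44), both with intervals that include 0. Summed, the GTPase genes of ECs stood at 4900 and 3328 CPM (−0.56, −0.67 to −0.45) and the type I genes at 2816 and 2474 CPM (−0.19, −0.32 to −0.06). For the type I genes 1 control EC held 14.2% of the control UMIs, and without it the ratio was 0.02 (−0.11 to 0.16). Without the CFA EC that held most type I UMIs, the ratio was −0.29 (−0.42 to −0.15). Members lower by at least 1 numbered 8 of 31 in ECs, 5 of 24 in FBs and 5 of 19 in macrophages, against 6.68%, 5.57% and 6.75% of all genes in these types, and 0 members were higher by 1 in any of them. Their medians were −0.45, −0.47 and −0.24.

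Erythroid cells went the other way for Rsad2 and Isg15. Rsad2 had 60 UMIs in 21 of 56 control cells and 504 UMIs in 54 of 104 CFA cells (2.29, 1.90 to 2.70), with at most 10 and 65 UMIs in a cell. Isg15 had 8 and 53 UMIs (1.94). Summed, the 5 type I genes stood at 972 and 4098 CPM (2.08, 1.73 to 2.44). Most of their 78 and 566 UMIs were Rsad2 and Isg15, so the sum says little of Ifit1, Ifit2 and Ifit3. The GTPase genes stood at 1072 and 456 CPM (−1.23, −1.73 to −0.75). A single control cell held 33.7% of the GTPase UMIs, and without it, a choice made after its value was seen, the GTPase genes stood at 722 and 456 CPM (−0.66, −1.20 to −0.12). Erythroid cells also held transcripts of other cells, with myelinating SC markers at 22579 CPM in control and 15174 CPM in CFA. Their part in the result was not tested. In OLCs the type I genes stood at 34.1 and 67.3 CPM (0.98, 0.16 to 1.87), but 1 CFA cell held 54% of these UMIs, and without it the ratio was −0.12 (−1.09 to 0.88). Ifit1 in OLCs had no UMI in control and 24 in CFA, in 5 cells.

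The mixture of members also differed between types within a library. Type I UMIs made up 21.1% of the type I and GTPase UMIs together in control SGCs, 21.2% in non-myelinating SCs and 20.5% in myelinating SCs. The SGC share rested on the cluster of 54 control cells, where it was 8.28%. In the other large SGC clusters it was 31.9%, 33.7% and 37.0% in control and 46.0%, 44.4% and 43.1% in CFA. In control the share was 36.5% in ECs, 46.8% in neurons, 47.6% in erythroid cells and 11.5% in T or NK cells. In CFA the share was 44.5% in SGCs, 18.9% in non-myelinating SCs, 14.4% in myelinating SCs, 42.6% in ECs, 56.3% in neurons and 90.0% in erythroid cells. CFA T or NK cells had 42.3%, on only 11 type I and 15 GTPase UMIs. The level of free RNA in the libraries was not measured, and its part in these shares was not tested. Gbp2 supplied most member UMIs in control SGCs (16.3%), non-myelinating SCs (24.5%) and myelinating SCs (20.1%), Iigp1 in ECs (13.9%), Oasl2 in neurons (14.9%) and Rsad2 in erythroid cells (26.2%).

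To see whether single cells held many member UMIs, each cell was thinned at random to 500 UMIs, which removes differences in depth. In SGCs 118 of 1050 control cells held at least 5 member UMIs (11.2%, 9.39 to 13.3) and 6 of 428 CFA cells (1.40%, 0.516 to 3.03), with 2 shallower cells left out of each library. Before thinning these shares were 26.8% and 11.9%, at median depths of 1970 and 1760 UMIs. Of the 118 control cells, 45 came from the 54-cell cluster, and without that cluster 73 of 996 control SGCs passed (7.33%, 5.79 to 9.13). In non-myelinating SCs 222 of 483 control cells (46.0%, 41.5 to 50.5) and 42 of 184 CFA cells (22.8%, 17.0 to 29.6) held at least 5, with 2 and 1 left out, and 64.7% and 44.3% before thinning. High cells were thus common among control non-myelinating SCs and a minority among SGCs.

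In the other types, ECs had 119 of 294 control cells (40.5%, 34.8 to 46.3) and 53 of 163 CFA cells (32.5%, 25.4 to 40.3), whose intervals overlap. Myelinating SCs had 9.29% and 3.20%, FBs 3.65% and 1.67%, macrophages 3.73% and 1.32% and T or NK cells 10.7% and 3.57%. Erythroid cells had 3 of 55 (5.45%) and 14 of 104 (13.5%). OLCs, the type with the lowest level, had 2.02% and 0.685%, at median depths of 4327 and 4143 UMIs before thinning, and 19.2% and 16.4% of them held at least 1 member UMI. No type is known to lack these genes altogether, so the OLC shares are the closest value to a background. Neurons were thinned to 5000 UMIs instead, where 226 of 789 control cells (28.6%, 25.5 to 31.9) and 86 of 404 CFA cells (21.3%, 17.4 to 25.6) held at least 5. Among neurons of the same depth, PEP had 39.9% and 34.6%, NP1 19.8% and 8.96%, Trpm8 30.5% and 11.4% and cLTMR 6.85% and 2.13%.

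**Figure D3:**
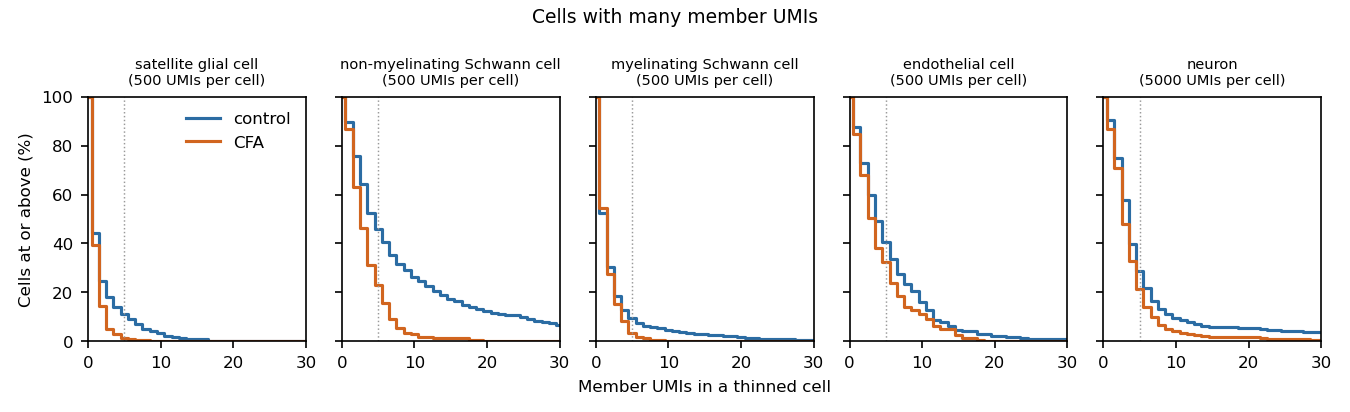
Share of cells, in percent, holding at least a given number of member UMIs after thinning to 500 UMIs per cell (5000 in neurons), for control and CFA. At 5 UMIs the SGC curves stand at 11.2% and 1.40% and the non-myelinating SC curves at 46.0% and 22.8%.

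Member UMIs were unevenly spread. The 105 control SGCs and the 42 CFA SGCs with most member UMIs, 10% of each, held 58.3% and 47.5% of them. The same share of cells held 40.5% and 30.1% in non-myelinating SCs, and 34.0% and 33.5% in ECs. Such a share also rises where most cells hold few member UMIs or none, so these values do not order the types or libraries. Beyond the 54-cell SGC cluster (45 of 54 cells, 83.3%), an unnamed group of 28 control cells, with no CFA cell, had 57.1% of its cells at 5 or more and was led by Ly6i, Cxcl9 and Calhm6. The non-myelinating SC cluster led by Emp1, Ifit3 and C4b had 59.2% and 35.6%, and the other, led by Scn7a, Aldh1a1 and Cdh19, had 25.4% and 16.8%.

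Whether type I and GTPase genes were high in the same cells was read from the thinned cells. Among control SGCs with at least 3 GTPase UMIs, 47 of 97 (48.5%, 38.2 to 58.8) held a type I UMI, and among those with none 70 of 793 (8.83%, 6.95 to 11.0). In non-myelinating SCs of the control library the shares were 139 of 247 (56.3%) and 20 of 109 (18.3%). The share climbed with the number of GTPase UMIs in these cells, from 18.3% at 0 and 18.1% at 1 to 2 through 30.8% at 3 to 5 and 59.7% at 6 to 10 to 88.5% above 10. In control SGCs it was 8.83%, 29.4%, 46.6%, 53.3% and 44.4% over the same steps, where the last step was 4 of 9 cells (13.7 to 78.8) and could not be told from the step before (16 of 30 cells, 34.3 to 71.7). Cells high in GTPases without a type I UMI were also present, 50 of 97 in control SGCs and 108 of 247 in non-myelinating SCs. Without the 54-cell cluster the control SGC share was 30 of 54 (55.6%) among cells with at least 3 GTPase UMIs and 8.71% among those with none.

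The same held in myelinating SCs, ECs, FBs and neurons of the control library. Type I UMIs were found in 54.3% of myelinating SCs with at least 3 GTPase UMIs and 5.49% of those with none, in 70.0% and 21.8% of ECs, in 26.9% and 6.21% of FBs, and, at 5000 UMIs, in 83.3% and 31.2% of neurons. Control T or NK cells with a type I UMI were 1 of 5 at 3 to 5 GTPase UMIs, 0 of 2 at 6 to 10 and 3 of 40 at none. No thinned control B cell held a type I UMI. In the CFA library the shares were 42.2% and 22.2% in non-myelinating SCs, 30.4% and 4.76% in myelinating SCs, 86.1% and 20.0% in ECs and 75.0% and 28.5% in neurons. In CFA SGCs 3 cells reached 3 GTPase UMIs and 1 of them held a type I UMI, beside 11.1% of the 370 cells with none. Among erythroid cells without a GTPase UMI, 13 of 46 in control (28.3%, 16.0 to 43.5) and 40 of 87 in CFA (46.0%, 35.2 to 57.0) held a type I UMI, and at 1000 UMIs the shares were 59.1% and 60.0%. Over cells, Pearson's r between type I and GTPase UMIs was 0.36 in control and 0.19 in CFA SGCs (1050 and 428 cells), 0.64 and 0.32 in non-myelinating SCs (483 and 184) and 0.60 and 0.24 in myelinating SCs (2098 and 1280). It was higher in CFA in ECs (0.40 and 0.54, 294 and 163 cells) and macrophages (0.27 and 0.48, 161 and 151 cells). It was 0.27 and 0.15 in FBs (576 and 359 cells) and 0.64 and 0.60 in neurons at 5000 UMIs (789 and 404 cells). Only 1 CFA macrophage held at least 3 GTPase UMIs. Spearman's correlation, computed on ranks, was higher in CFA in ECs alone among these types (0.46 and 0.52). It was 0.22 and 0.19 in macrophages and 0.34 and 0.18 in neurons. Cells of a type share a library, and these values are descriptions.

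**Figure D4:**
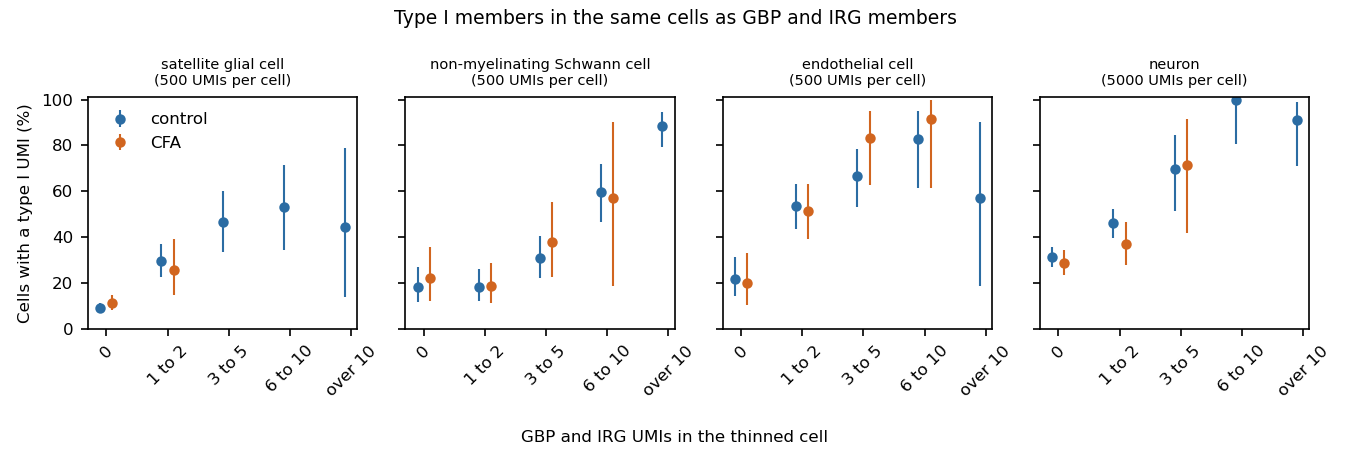
Share of cells, in percent, with at least 1 type I UMI, by the number of GTPase UMIs in the same cell, for cells thinned to 500 UMIs (5000 in neurons) of the control and CFA libraries, with exact 95% intervals for steps of at least 5 cells. In control non-myelinating SCs the share goes from 18.3% at 0 to 88.5% above 10 GTPase UMIs.

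Control SGCs with at least 5 member UMIs (118 cells) were compared with those with none (587 cells) at 500 UMIs each. Outside the interferon lists, Serping1, an inhibitor of complement C1, stood furthest apart, at 1407 CPM in high and 57.9 CPM in low cells (4.60, 3.84 to 5.45). Rarres2 followed at 0.79, and Cnn3, Clic4, Gpx1, Calr, Laptm4a, Tmbim6, Ptma and Prnp stood lower, down to 0.49. Listed interferon-responsive genes that are not members differed by 5.20 for H2-T23, 5.22 for H2-Ab1 and 4.98 for Cd74, inside the interval of Serping1. The immunoproteasome subunit Psmb8 differed by 3.75, the chemokine Cxcl10 by 3.32 and B2m, the light chain of MHC class I, by 2.48. Socs3, a feedback inhibitor driven by several cytokines, stood at 0.02. Many of the high cells came from the 54-cell cluster, which Cxcl10, H2-T23 and Serping1 led, and no value was computed without it. The profile of that cluster cannot be told apart here from that of high SGCs. The cells were split by their own member UMIs, and the values are descriptions.

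Marker genes of other cell types were checked in the same cells. Neuron markers stood at 831 CPM in high and 651 CPM in low SGCs (0.35), SGC markers at 44271 and 55118 CPM (−0.32) and macrophage markers at 33.9 and 27.3 CPM, on 2 and 8 UMIs. T or NK cell markers had 0 and 1 UMI, endothelial markers 0 and 9, and the immune marker Ptprc 0 and 1. High cells were deeper before thinning (median 2629.5 and 1889 UMIs), had a lower mitochondrial share (8.21% and 11.4%) and a higher doublet score (0.0386 and 0.0237). In neurons, cells with at least 5 member UMIs differed from those with 0 or 1 in erythroid markers, at 127 and 25.3 CPM (2.33), and their part in the neuronal values was not tested.

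**Figure D5:**
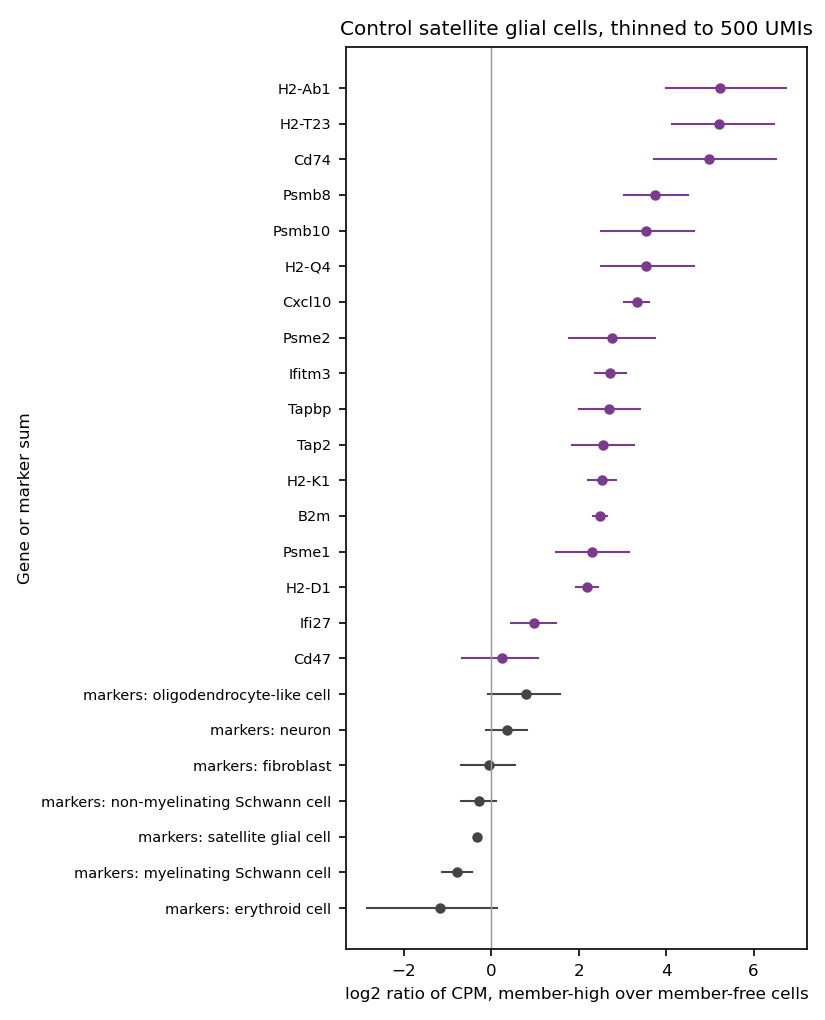
Log2 ratio of CPM between control SGCs with at least 5 member UMIs and those with none, at 500 UMIs per cell, for listed interferon targets that are not members and for summed marker genes of cell types, both with at least 40 UMIs, with exact 95% counting intervals as bars. H2-T23 stands at 5.20 and neuron markers at 0.35. Many of the high cells belong to the 54-cell cluster.

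The genes around the members in the pathway were given from a list. Ligands were rare. Ifng had 38 UMIs in 9 of 56 control T or NK cells and 4 UMIs in 3 of 28 CFA ones, 2 UMIs in control B cells, 8 UMIs in 1 unnamed control cell and 1 UMI in a CFA neuron. It had none in SGCs or non-myelinating SCs of either library. Ifnb1 had 3 UMIs in 1 control macrophage and 1 in a control neuron, Ifna2 had 1 UMI in neurons of each library, and Ifnl2 had 1 in a control neuron. The receptors in SGCs stood at 48.4 and 53.2 CPM for Ifngr1, 22.9 and 11.8 CPM for Ifngr2, 26.8 and 35.5 CPM for Ifnar1 and 26.8 and 28.4 CPM for Ifnar2, each with an interval of the ratio that includes 0. Il10rb, a shared chain of the type III interferon receptor, stood at 29.0 and 39.0 CPM (0.43, −0.22 to 1.05), and Ifnlr1, the other chain, had no UMI in SGCs.

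Among signalling genes in SGCs, Socs1, which blocks Janus kinases, stood at 68.2 and 36.7 CPM (−0.90) and Socs3 at 665 and 480 CPM (−0.47). The kinases Jak1 (102 and 117 CPM), Jak2 (38.3 and 29.6 CPM) and Tyk2 (6.60 and 11.8 CPM) had intervals that include 0. Nlrc5, an activator of MHC class I genes, had 27 and 2 UMIs (−2.33, −5.45 to −0.34), and Ciita, the activator of MHC class II genes, had 14 and 0 (at least 1.74-fold lower). Of the other interferon targets on the list, 29 of 47 with at least 20 UMIs in SGCs were lower in CFA by at least 1 and 0 higher (median −1.22), beside 4.71% of all genes lower. The counts were 38 of 46 in non-myelinating SCs (−1.51, beside 9.82%), 22 of 41 in myelinating SCs (−1.05, beside 4.44%), 11 of 62 in neurons (−0.37, beside 2.83%) and 9 of 51 in ECs (−0.31, beside 6.68%). Over these 5 cell types 1 target was higher by at least 1, Ube2l6 in ECs (1.29, 0.30 to 2.32). FBs had 4 of 39 targets lower and 0 higher (−0.35, beside 5.57%). Macrophages had 3 of 41 lower and 2 higher (−0.17, beside 6.75%), near the share of all genes. Without the 54-cell cluster the SGC count was 12 of 42 (−0.60, beside 3.98%). The 10 targets with most UMIs in SGCs were B2m (4304 and 1574 CPM, −1.45), H2-D1 (1639 and 801 CPM, −1.03), Cxcl10 (1496 and 453 CPM, −1.72), H2-K1 (1246 and 511 CPM, −1.29), Ifitm3 (1053 and 630 CPM, −0.74), Ifi27 (459 and 348 CPM, −0.40), Psmb8 (317 and 111 CPM, −1.51), H2-T23 (319 and 22.5 CPM, −3.83), Tapbp (251 and 124 CPM, −1.02) and Cd47 (213 and 202 CPM, −0.07, −0.34 to 0.18). The antigen-presentation genes in that group were lower in CFA, and Cd47 did not differ beyond counting error. Chosen after their values were seen, Cxcl9, a chemokine driven by interferon gamma, had 235 UMIs in control and 0 in CFA SGCs, at least 29.2-fold lower, and 331 and 0 in non-myelinating SCs, at least 35.9-fold lower. H2-Ab1, an MHC class II chain, had 544 and 2 UMIs in SGCs (−6.66, −9.71 to −4.80). The SGC values of single targets include the 54-cell cluster, which Cxcl10 and H2-T23 led, and none was computed without it.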

How the data were processed

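The deposited files hold whole-number UMI counts per gene and cell for 1 control and 1 CFA library. Per the labels and the study's methods, the authors dissociated the right TGs with papain, made the libraries on the BD Rhapsody system and sequenced them on a NovaSeq. The submitters' processing notes name fastp and GRCm38, and the aligner and counting program were not given in the sources used here. The members and gene lists were chosen with earlier results of these data known.

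Cells with fewer than 150 genes or over 25% mitochondrial UMIs were removed, as in the study's methods, and genes found in fewer than 2 cells were left out of the clustering. Together the kept cells exceeded the count stated in the study. Cells were clustered in Seurat 5.3.0 (R 4.3.3) with 2000 variable genes, 20 components, 20 neighbours and a Louvain resolution of 0.8 (1 for neurons), leaving all members and other listed interferon genes out. Glia, neurons and immune cells were clustered a second time, a step decided after the first clusters were seen. A cluster took the name of its best-scoring marker set when at least 3 of those markers were detected, the second set scored below 0.8 of the best, and no other set had more of its markers among the top 10 genes. Clusters of low depth without an own marker there, or whose best set lay outside their first-round pool, stayed unnamed. The top 10 genes were ranked over all genes, members included, and those of the 54-cell SGC cluster held no SGC marker. Doublets were kept: Scrublet (scanpy 1.11.5) called 107 control and 4 CFA cells, and 122 and 25 cells scored above 0.25.

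UMIs were summed per cell type and library and divided by the total, with no pseudocount. Intervals at 95% were exact (Poisson for levels, Clopper-Pearson for shares, conditional binomial for ratios) and cover counting error only. They were computed in Python 3.11.15 (numpy 2.4.6, scipy 1.17.1, pandas 2.3.3). A ratio against 0 UMIs was set at 3 UMIs and is a lower bound, also in medians and counts of genes. Cells were thinned without replacement with a fixed seed. The ratio intervals were tried on SGC sums simulated with independent UMIs, and the thinning was checked on control SGCs. The simulation did not include member UMIs gathered in few cells, so it does not cover that case. UMI counts were not divided by gene length. Comparisons between genes, such as type I shares and leading members, are of UMIs as counted. No test between conditions, p-value or standard error was computed, because each condition was 1 library.

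Named genes were the members with at least 100 UMIs over both libraries in SGCs, non-myelinating SCs or neurons, the detected ligands, receptors and signalling genes of the pathway (1 signalling gene is not reported here), the 10 other targets with most UMIs in SGCs and the 10 unlisted genes highest in member-high SGCs. Other members were named where their counts were near 0 in CFA or where their ratio differed between cell types, and these were chosen after their values were seen. Promoters came from RefSeq (GRCm38.p6) and gene positions from the GENCODE annotation of GRCm38. Alternatives were stricter cell filters, doublet removal, other clusterings, other thinning depths and thresholds, and other scalings.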

Additional observations from a re-analysis of the deposited data

Results flagged for a closer look

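In erythroid cells all members summed, and in OLCs the type I genes alone, stood higher in the CFA library, opposite to SGCs. In erythroid cells the log2 ratio of CFA to control was 0.90 for all members and 2.08 for the type I genes, where Rsad2 supplied 68.7% of the member UMIs of the CFA cells. In OLCs it was 0.98 for the type I genes, on 17 UMIs in control and 50 in CFA, and −0.12 without 1 CFA cell. Each condition was 1 library, so whether these ratios differ from that of SGCs was not tested.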

How the results depend on the processing

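No paired analysis was possible because each condition was 1 library. Of 84 recomputed values, 58 stayed within the counting interval of the reported value, 26 left it, and no ratio changed sign. The causes were not tested. The share of control SGCs with at least 5 member UMIs (11.2%) was 18.4% with stricter cell filters, 18.6% at 1000 UMIs, 17.9% at 3 or more, 3.24% at 10 or more and 7.33% without the 54-cell cluster. In CFA SGCs (1.40%) it was 4.35%, 4.49%, 4.91% and 0% under the first 4 of these, and 0 of 428 cells allows a share of up to 0.701% by the 3-count limit and 0.858% by the exact interval. In control non-myelinating SCs (46.0%) it was 74.6% at 1000 UMIs, 64.2% at 3 or more and 26.1% at 10 or more, and in CFA (22.8%) 42.2%, 46.2% and 2.72%. The share of control SGCs with a type I UMI among those with at least 3 GTPase UMIs (48.5%) was 70.1% at 1000 UMIs, and among those with none (8.83%) 6.36% with a second random draw. The summed ratio in SGCs (−1.66) was −1.96 without cells of high doublet score, −1.38 with cells weighted equally, −1.18 in thinned cells and −0.98 without the 54-cell cluster. For neurons (−0.60) it was −0.68 with cells weighted equally, −0.31 in thinned cells and −0.55 without the cluster of 23 cells. For type I genes in SGCs (−1.01) it was −1.38 without cells of high doublet score and −0.60 in thinned cells. The comparisons without single clusters or single cells were chosen after seeing the data. The depth limits single members most, since 500 UMIs per cell hold few member UMIs even in high cells.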
